A study of Mus musculus with 6 samples.

Results

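The trace amine-associated receptors (TAARs) of the Taar7 and Taar8 subfamilies were followed by RNA-Seq in wild-type and RTP1,2DKO olfactory mucosa. The genes were Taar7a, Taar7b, Taar7d, Taar7e, Taar7f, Taar8a, Taar8b and Taar8c, chosen by name. They were 8 of the 15 Taar genes and 8 of the 24661 genes in the files. Since the genes of a subfamily are near copies of each other, the counts of the 5 Taar7 genes and of the 3 Taar8 genes were also summed.

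TAARs are G protein-coupled receptors, and many of them respond to volatile amines. Except for Taar1, they are expressed in olfactory sensory neurons (OSNs) of the main olfactory epithelium, mostly in its dorsal part, where a neuron expresses a TAAR in place of an odorant receptor (OR). The Taar7 and Taar8 genes arose by local duplication in the Taar cluster. RTP1 and RTP2 are transmembrane proteins of OSNs that help ORs reach the cell surface.

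RNA came from the whole olfactory mucosa, which holds neurons, sustentacular cells, basal cells and surrounding tissue, of 3 wild-type and 3 RTP1,2DKO mice aged 21 days. The strain was C57BL/6, and the methods describe littermates matched for sex. In RTP1,2DKO mice the coding regions of Rtp1 and Rtp2 had been replaced by targeting in hybrid 129/B6 embryonic stem cells, and the line was then backcrossed to C57BL/6. The wild-type mice carried neither deletion, and no mouse was treated.

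The total count per mouse lay between 31125410 and 41636996. Rtp1 had 13542.6 to 25300.9 normalized counts in the wild-type mice and 85.5 to 108.8 in the RTP1,2DKO mice, and Rtp2 had 7156.7 to 9510.5 and 26.2 to 58.0, so every library had the Rtp1 and Rtp2 level its label implies. The OSN marker Omp, the sustentacular marker Cyp2g1 and the basal cell marker Krt5 had counts in every mouse. Of the 22152 genes tested, those with 1 or more counts in any mouse, 102 were higher and 697 lower in RTP1,2DKO (edgeR's quasi-likelihood test, Benjamini-Hochberg adjusted p under 0.05), which is 3.61% in either direction. In bulk tissue, fewer cells of a type and less RNA per cell cannot be told apart.

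The members lie side by side on chromosome 10, between 23992405 and 24101912 (GRCm38, the same assembly as mm10), within a Taar cluster of 189.2 kb. Taar7a (ENSMUSG00000095647.1, 23992405 to 23993481) is on the minus strand. Taar7b (ENSMUSG00000095171.1, 23999939 to 24001015), Taar7d (ENSMUSG00000095569.1, 24027222 to 24028298), Taar7e (ENSMUSG00000100689.1, 24037614 to 24038690) and Taar7f (ENSMUSG00000100950.1, 24049510 to 24050586) are on the plus strand, and the pseudogene Taar7c-ps lies between Taar7b and Taar7d. Taar8a (ENSMUSG00000096442.1, 24076500 to 24077534) is on the plus strand, and Taar8b (ENSMUSG00000100186.1, 24091260 to 24092294) and Taar8c (ENSMUSG00000100004.1, 24100878 to 24101912) are on the minus strand. All are annotated by GENCODE M21 as protein-coding with a single coding exon.

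The Taar7 genes share their length of 1077 bases with no gap between them, and differ at 140 positions (13.0%). Their identity ran from 91.7% between Taar7a and Taar7f to 95.4% between Taar7e and Taar7f. The differences were densest at the start of the coding sequence. Bases 1 to 60 of each gene are shown because 31 of their positions differ in at least 1 of the 5 genes, although the windows of Taar7d and Taar7e are nearly the same. Capitals mark the positions at which any of the 5 genes differs (GRCm38, coding strand, 5′ to 3′).
Taar7a, chr10:23993422-23993481, minus strand: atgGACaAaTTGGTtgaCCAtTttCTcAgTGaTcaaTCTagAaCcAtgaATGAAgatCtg
Taar7b, chr10:23999939-23999998, plus strand: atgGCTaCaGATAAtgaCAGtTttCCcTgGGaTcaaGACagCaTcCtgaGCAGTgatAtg
Taar7d, chr10:24027222-24027281, plus strand: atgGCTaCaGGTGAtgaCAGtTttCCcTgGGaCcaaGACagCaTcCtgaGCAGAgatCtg
Taar7e, chr10:24037614-24037673, plus strand: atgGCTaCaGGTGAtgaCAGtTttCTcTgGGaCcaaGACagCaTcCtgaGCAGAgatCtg
Taar7f, chr10:24049510-24049569, plus strand: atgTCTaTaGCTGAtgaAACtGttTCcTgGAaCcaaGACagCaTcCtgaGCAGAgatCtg
The opposite case is the longest stretch without any difference, 77 bases from base 688 to base 764. A read that falls within it could have come from any Taar7 gene.
Taar7a, chr10:23992718-23992794, minus strand: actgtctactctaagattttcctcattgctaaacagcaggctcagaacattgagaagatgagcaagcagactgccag

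The Taar8 genes were closer still. Their coding sequences of 1035 bases differed at 40 positions (3.9%), with an identity of 96.6% between Taar8a and Taar8b and 98.1% between Taar8a and Taar8c. The 60 bases with the most differences, from base 964 to base 1023, held 11, which are capitalized below.
Taar8a, chr10:24077463-24077522, plus strand: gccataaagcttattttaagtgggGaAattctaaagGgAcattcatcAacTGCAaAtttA
Taar8b, chr10:24091272-24091331, minus strand: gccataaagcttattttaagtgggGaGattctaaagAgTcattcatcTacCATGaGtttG
Taar8c, chr10:24100890-24100949, minus strand: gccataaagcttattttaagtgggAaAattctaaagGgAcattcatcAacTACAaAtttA
The longest stretch shared by all Taar8 genes had 126 bases. Between a Taar7 and a Taar8 gene the identity was 67.7% to 69.1%.

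Kallisto, the program the authors used, assigns reads by short words, of 31 bases by default. The share of a gene's words found in no other annotated gene was 42.7% for Taar7a, 42.4% for Taar7b, 50.7% for Taar7d, 30.6% for Taar7e and 34.9% for Taar7f. It was 38.2% for Taar8a, 31.3% for Taar8b and 19.7% for Taar8c. These shares were computed on GENCODE M21 transcripts with Taar7c-ps among them, which are not the sequences the authors used. In the files Taar8c has 1109 bases in place of 1035, and Taar7c-ps has no row. The pseudogene Taar7c-ps, close to the Taar7 genes in sequence, had 39.8%. Of the other Taar genes, Taar6 had 95.8% and the rest at least 99.9%. Reads from the rest of a Taar7 or Taar8 transcript are split among the near copies by an estimate, which leaves the level of a single gene less certain than that of its subfamily.

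**Figure D1:**
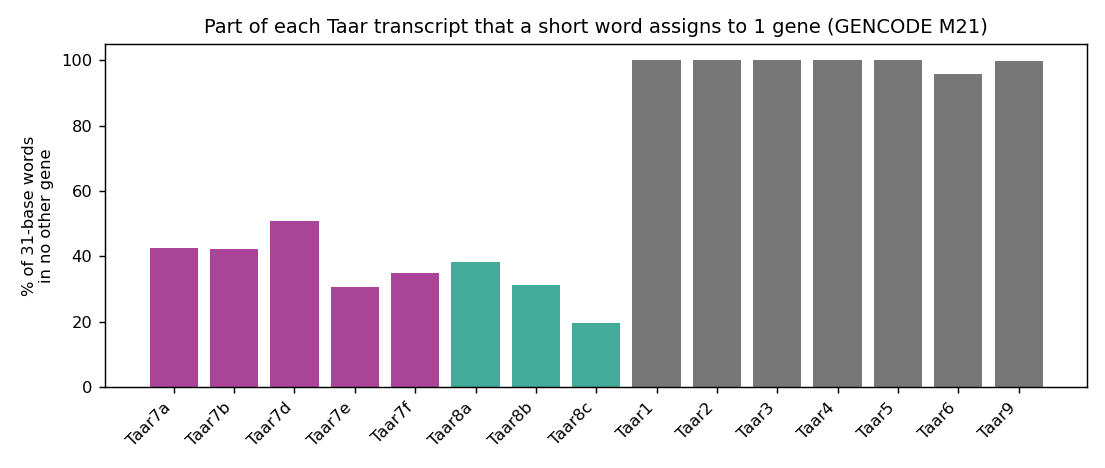
Share of each Taar transcript's words of 31 bases (percent, vertical axis) that occur in no other gene of GENCODE M21, 1 bar a gene. The Taar7 and Taar8 bars end between 19.7% and 50.7%, and those of the 7 other Taar genes at 95.8% or above.

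The split acted within the subfamilies. The estimated counts of all 8 genes added up to a whole number in each of the 6 mice, and the Taar7 sum lay within 0.10 of a whole number. Of the words of the Taar7 genes as a set, 64.6% occurred in no gene outside them, and of those of the Taar8 genes 96.2%. The remainder for Taar7 included words of the pseudogene Taar7c-ps, which shared 27.8% to 46.3% of the words of a Taar7 gene. No row of the files stood for Taar7c-ps, and its reads, if there were any, cannot be told apart from those of the Taar7 genes.

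All of these receptors were scarce in the tissue. The 8 genes together held 313, 417 and 281 estimated counts in the wild-type mice (1 to 3) against 617, 699 and 675 in the RTP1,2DKO mice (1 to 3). As a part of the library this was 9.25, 12.53 and 8.24 CPM (counts scaled to the library's total) in the wild-type and 19.82, 16.79 and 17.6 CPM in RTP1,2DKO. Every RTP1,2DKO mouse lay above every wild-type mouse on this scale, which divides by the library's total in place of size factors. How many of all genes did so on this scale was not computed.

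The summed Taar7 counts rose in RTP1,2DKO. The Taar7 sum was 296.8, 336.8 and 258.0 normalized counts in the wild-type mice (1 to 3) against 596.3, 504.1 and 587.0 in the RTP1,2DKO mice (1 to 3). In normalized counts the groups did not overlap, and the lowest RTP1,2DKO mouse was well above the highest wild-type mouse. The wild-type mean was 297.2 ± 39.4 (SD, n = 3) and the RTP1,2DKO mean 562.5 ± 50.8 (SD, n = 3), 1.89 times as high. The log2 fold change was 0.92 ± 0.158 (SE, adjusted p = 0.004362, edgeR's quasi-likelihood test, which is meant wherever a value is credited to edgeR alone). This fit used a table with each subfamily as 1 row, and 0.465% of its 22146 rows were higher in RTP1,2DKO at the threshold of 0.05. With the replicate number as a block the value was 0.92 with an adjusted p of 0.004432.

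The Taar8 sum gave no call. It was 27.0, 61.1 and 51.8 normalized counts in the wild-type mice (1 to 3) against 53.8, 105.5 and 74.5 in the RTP1,2DKO mice (1 to 3). RTP1,2DKO mouse 1, the lowest of its group, lay below wild-type mouse 2, so the groups overlapped. Between mice of the same number the Taar8 sum was higher in RTP1,2DKO in 3 of 3 pairs, and with the replicate number as a block its log2 fold change was 0.76 (adjusted p = 0.266, edgeR). The wild-type mean was 46.6 ± 17.6 (SD, n = 3) and the RTP1,2DKO mean 77.9 ± 26.0 (SD, n = 3), and the log2 fold change of 0.74 ± 0.378 (SE, adjusted p = 0.5024, edgeR) did not pass. The biological coefficient of variation fitted by edgeR was 0.323 for the Taar8 sum and 0.154 for the Taar7 sum.

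**Figure D2:**
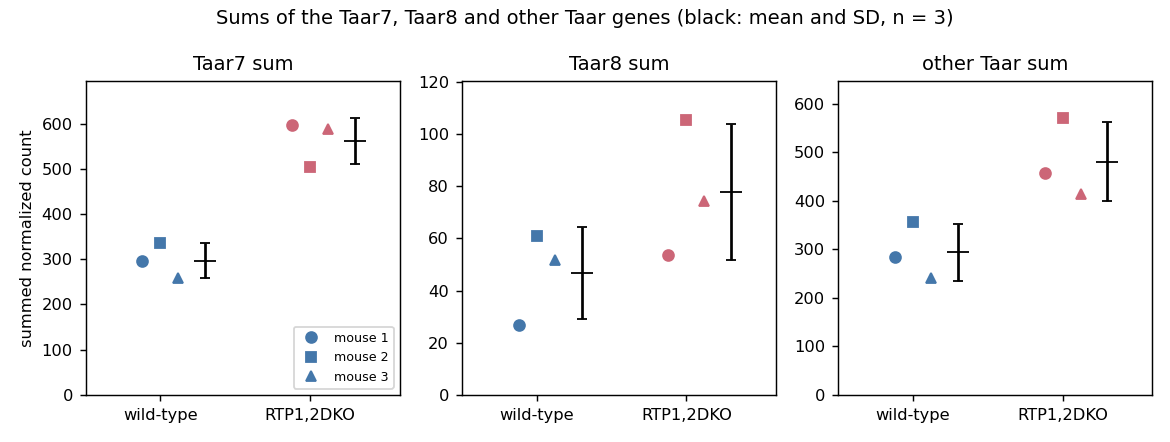
Summed normalized counts (vertical axis) of the Taar7, Taar8 and other Taar genes in each wild-type (blue) and RTP1,2DKO (red) mouse, with the mean and SD of 3 mice in black. For the Taar7 genes the wild-type mice end at 336.8 and the RTP1,2DKO mice begin at 504.1, whereas the Taar8 groups overlap.

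No single gene of either subfamily passed the threshold (0 of 8 by edgeR's quasi-likelihood test, and also 0 of 8 by edgeR's exact and likelihood-ratio tests). By DESeq2 none passed either, but it gave Taar8a no adjusted p. Over all genes, 0.46% were called as higher by the quasi-likelihood test. All 8 log2 fold changes were positive, with a median of 0.96 for the Taar7 genes and 1.24 for the Taar8 genes beside 0.02 for all genes tested. The Taar8 median is the value of Taar8c, which was 0.36 without RTP1,2DKO mouse 2. At an unadjusted p under 0.05, 4 of the 8 genes were higher, where 4.58% of all genes were. In 2 of the 8, Taar7b and Taar7e, every RTP1,2DKO mouse was above every wild-type mouse, as in 7.2% of all genes. Genes of a subfamily share reads, so their values are not independent of each other.

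Taar7b had 50.1, 28.7 and 30.3 normalized counts in the wild-type mice (1 to 3) against 90.4, 81.7 and 53.8 in the RTP1,2DKO mice (1 to 3). The groups did not overlap, but the highest wild-type and the lowest RTP1,2DKO mouse were close. Its log2 fold change was 1.05 ± 0.357 (SE, adjusted p = 0.1838, edgeR).

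Taar7e had 17.4, 89.7 and 78.7 normalized counts in the wild-type mice (1 to 3) against 102.5, 110.0 and 162.5 in the RTP1,2DKO mice (1 to 3). Wild-type mouse 1 was far below the other mice of its group. The log2 fold change was 1.01 ± 0.448 (SE, adjusted p = 0.3941, edgeR), and 0.57 without that mouse.

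Taar7f, a receptor for N-methylpiperidine, showed the opposite in that mouse. It had 125.3, 70.1 and 59.9 normalized counts in the wild-type mice (1 to 3) against 179.6, 117.1 and 194.0 in the RTP1,2DKO mice (1 to 3), and wild-type mouse 1 lay above RTP1,2DKO mouse 2. The log2 fold change was 0.94 ± 0.310 (SE, adjusted p = 0.1689, edgeR). Without wild-type mouse 1 it was 1.32 and passed the threshold (adjusted p = 0.02888 from the same test), the only such case among the members with any 1 mouse left out.

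Taar7a had 46.5, 72.6 and 47.4 normalized counts in the wild-type mice (1 to 3) against 132.1, 125.2 and 68.0 in the RTP1,2DKO mice (1 to 3). RTP1,2DKO mouse 3 fell within the wild-type range, while the other 2 were above it. Its log2 fold change was 0.96 ± 0.329 (SE, adjusted p = 0.1901, edgeR).

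Taar7d had the smallest log2 fold change of the Taar7 genes. It had 57.5, 75.6 and 41.6 normalized counts in the wild-type mice (1 to 3) against 91.7, 70.0 and 108.7 in the RTP1,2DKO mice (1 to 3), with RTP1,2DKO mouse 2 inside the wild-type range. The log2 fold change was 0.62 ± 0.314 (SE, adjusted p = 0.4994, edgeR). Taar7d is also the Taar7 gene with the largest share of words of its own.

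Of the Taar8 genes, Taar8a and Taar8c were sparser than every Taar7 gene by mean count, while Taar8b was near Taar7b in the wild-type. Taar8b had 19.9, 45.2 and 37.6 normalized counts in the wild-type mice (1 to 3) against 24.3, 53.1 and 65.2 in the RTP1,2DKO mice (1 to 3), which overlapped (log2 fold change 0.49 ± 0.456, SE, adjusted p = 0.7804, edgeR). Taar8c had 5.8, 14.3 and 14.2 in the wild-type mice (1 to 3) against 22.7, 52.4 and 7.0 in the RTP1,2DKO mice (1 to 3). For Taar8c, RTP1,2DKO mouse 3 lay within the wild-type range and the other 2 above it (log2 fold change 1.24 ± 0.707, SE, adjusted p = 0.5713, edgeR). Without RTP1,2DKO mouse 2 it was 0.36.

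Taar8a was at the limit of detection. It had 1.4, 1.6 and 0.0 normalized counts in the wild-type mice (1 to 3) against 6.8, 0.0 and 2.3 in the RTP1,2DKO mice (1 to 3), and a count of 0 allows up to 3 counts. Over the group it had 3 rounded counts in the wild-type and 9 in RTP1,2DKO, a ratio of 2.81 after scaling with an exact 95% counting interval of 0.702 to 16.2. A difference was not detectable at this depth. The fitted log2 fold change of Taar8a was 1.31, and -0.083 without RTP1,2DKO mouse 1. Intervals and limits of this kind cover counting error only.

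**Figure D3:**
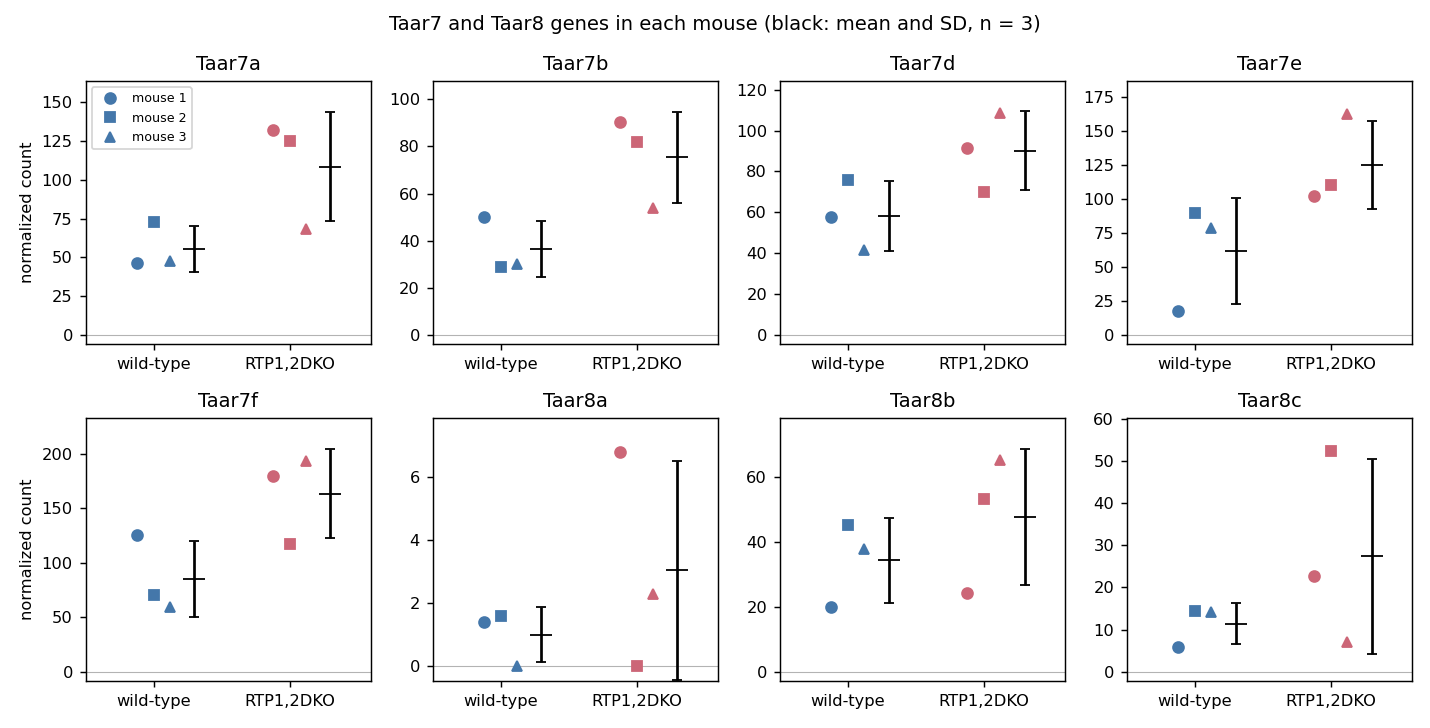
Normalized counts (vertical axis, a separate scale for each gene) of the 8 genes in each wild-type (blue) and RTP1,2DKO (red) mouse, with the mean and SD of 3 mice in black. The groups are apart for Taar7b and Taar7e and overlap for the other 6, and for Taar7e wild-type mouse 1 stands alone at 17.4.

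Levels were compared between genes per length, in the TPM values of the authors. In the wild-type the order was Taar7f with 5.37 ± 2.81 TPM (SD, n = 3), Taar7e with 3.72 ± 2.61, Taar7d with 3.71 ± 1.73, Taar7a with 3.48 ± 1.52, Taar8b with 2.27 ± 1.08, Taar7b with 2.26 ± 0.988, Taar8c with 0.646 ± 0.299 and Taar8a with 0.0733 ± 0.0646. The ranges of all neighbours overlapped except at the lower end, where Taar7b was above Taar8c and Taar8c above Taar8a in each of the 3 mice without overlap. In RTP1,2DKO the order was Taar7f with 8.52 ± 2.68 TPM (SD, n = 3), Taar7e with 6.34 ± 0.907, Taar7a with 5.80 ± 2.60, Taar7d with 4.66 ± 1.13, Taar7b with 4.01 ± 1.60, Taar8b with 2.55 ± 0.806, Taar8c with 1.35 ± 1.07 and Taar8a with 0.190 ± 0.240, and the ranges of all neighbours overlapped. Taar7f had the highest mean in both groups, but in the wild-type it was above Taar7e in 1 of 3 mice only, mouse 1. Taar8a had the lowest mean in both groups. The summed TPM of the Taar7 genes was 18.5 ± 6.08 (SD, n = 3) for wild-type mice and 29.3 ± 6.63 (SD, n = 3) for RTP1,2DKO mice. This rise was smaller relative to its spread than that in normalized counts. Summed over the Taar7 genes, wild-type mouse 2 and RTP1,2DKO mouse 2 lay close together in TPM.

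Within the Taar7 subfamily, the estimated split among genes varied from mouse to mouse. Taar7e took 5.8% of the Taar7 counts in wild-type mouse 1 (95% Wilson interval 3.7% to 9.3%), but 26.6% and 30.5% in wild-type mice 2 and 3. Taar7f took 42.2% in wild-type mouse 1 (36.6% to 47.9%), but 20.8% and 23.2% in mice 2 and 3. The intervals take the estimated counts as observed, so they leave out the uncertainty of the split between Taar7e and Taar7f. These 2 genes are the most alike of the subfamily in sequence. Together they took 48.1%, 47.5% and 53.7% in wild-type mice 1, 2 and 3, where the joint share varied less than that of either gene. In RTP1,2DKO mice 1, 2 and 3 they took 47.3%, 45.1% and 60.7%, and there the joint share varied more than that of either gene. This pair was chosen after its values were seen.

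No share differed between the genotypes past the threshold. The share of Taar7f in the Taar7 counts was 28.8% ± 11.7 (SD, n = 3) for wild-type mice and 28.8% ± 5.04 (SD, n = 3) for RTP1,2DKO mice. The mean share of Taar7d differed most within Taar7, from 19.3% ± 3.16 (SD, n = 3) to 15.9% ± 2.37 (SD, n = 3), with overlapping groups (exact permutation test, two-sided, p = 0.2). Within Taar8, Taar8b took 73.7%, 74.0% and 72.6% in the wild-type mice (1 to 3) against 45.1%, 50.3% and 87.5% in the RTP1,2DKO mice (1 to 3). The wild-type mice were close together, while the RTP1,2DKO mice lay on both sides of them (exact permutation test, two-sided, p = 0.4). The adjusted p was 0.9 for each of the 8 shares, and 3 mice against 3 cannot give an unadjusted p below 0.1.

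**Figure D4:**
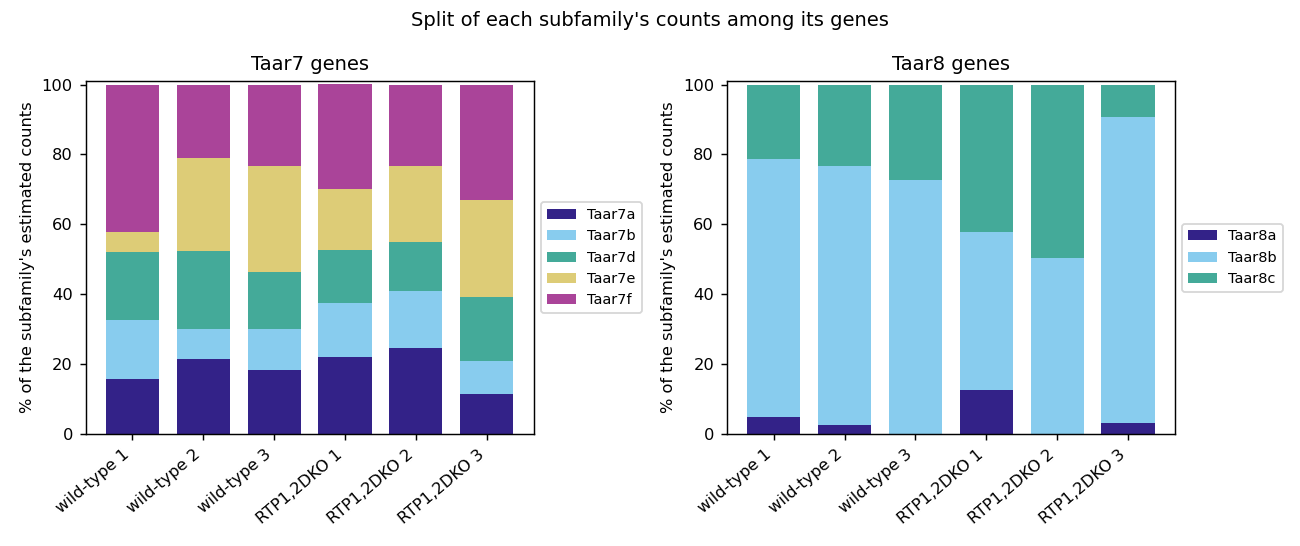
Share of the estimated counts of the Taar7 genes (left) and of the Taar8 genes (right) taken by each gene (percent, vertical axis) in each mouse. Taar7e is narrow and Taar7f broad in wild-type mouse 1, with 5.8% and 42.2%, and Taar8b takes 72.6% to 74.0% in the wild-type but 45.1% to 87.5% in RTP1,2DKO.

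To ask whether the subfamilies changed by another factor than the rest of the family, each sum was divided by the summed counts of the 7 other Taar genes in the same mouse. The log2 ratio of Taar7 to the other Taar genes was 0.06, -0.08 and 0.10 in the wild-type mice (1 to 3) against 0.39, -0.18 and 0.50 in the RTP1,2DKO mice (1 to 3). RTP1,2DKO mouse 2 was the lowest of all mice and the other 2 were the highest. The mean difference was 0.21 (exact permutation test, two-sided, p = 0.4, adjusted p = 0.6667 over 5 ratios). For Taar8 to the other Taar genes it was 0.06 (exact permutation test, p = 0.8, adjusted p = 0.9), and for Taar7 to Taar8 0.16 (exact permutation test, p = 0.9, adjusted p = 0.9). The Taar7 genes held 42.7% to 54.6% of all Taar counts of a mouse and the Taar8 genes 4.4% to 9.4%.

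The other Taar genes, described here for comparison, summed to 284.5, 356.8 and 240.4 normalized counts in the wild-type mice (1 to 3) against 456.3, 571.2 and 413.5 in the RTP1,2DKO mice (1 to 3). Of the 6 with counts, 1 passed the threshold, Taar6, the neighbour of Taar7a, with a log2 fold change of 1.26 ± 0.244 (SE, adjusted p = 0.00951, edgeR). Taar2, Taar3, Taar4 and Taar5 had log2 fold changes of 0.63, 0.95, 0.83 and 1.39 and did not pass. At an unadjusted p under 0.05, Taar5 was higher besides Taar6. Every RTP1,2DKO mouse was above every wild-type mouse for Taar2, Taar3, Taar5 and Taar6, but not for Taar4 and Taar9. The sum of these genes did not overlap either, and over all genes 7.2% had no overlap in this direction. Taar9, the neighbour of Taar8c at the end of the cluster, had 0.05. Taar1, which is known from the brain and not from OSNs, had no count in any mouse.

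Of the nearest genes outside the family, 3 on each side, none passed (0 of 6 by edgeR's quasi-likelihood, exact and likelihood-ratio tests and by DESeq2, and 1, Moxd1, at an unadjusted p under 0.05). On the side of Taar1, Slc18b1, Vnn3 and Vnn1 had log2 fold changes of 0.07, -1.16 and 0.14. The value of Vnn3 rested on few counts, with means of 26.2 in the wild-type and 11.7 in RTP1,2DKO. Its groups overlapped (SE 0.644, adjusted p = 0.553, edgeR). On the side of Taar9, Stx7, Moxd1 and Ctgf had -0.03, 0.35 and 0.22.

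**Figure D5:**
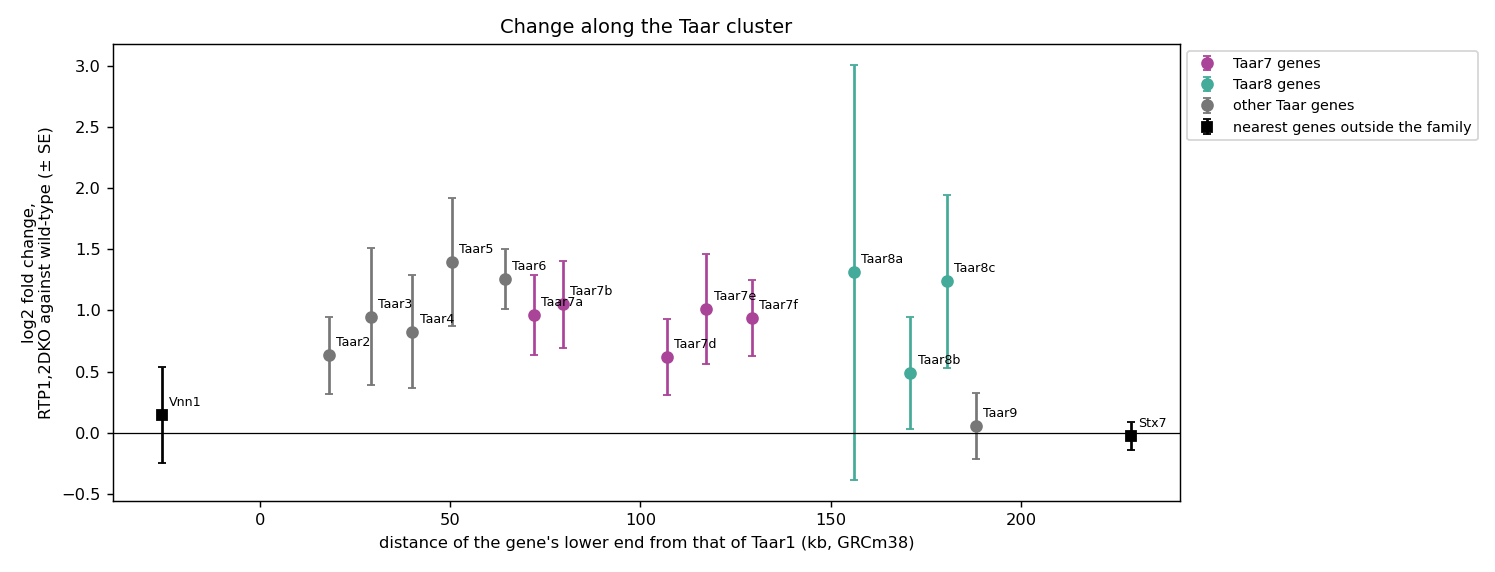
Log2 fold change of RTP1,2DKO against wild-type with its standard error (vertical axis) at each gene's distance in kb from the start of Taar1 (horizontal axis). All Taar7 (purple) and Taar8 (green) genes lie above 0, from 0.49 to 1.31 with the widest bar at Taar8a. Of the other Taar genes (grey), Taar2, Taar3, Taar4, Taar5 and Taar6 lie above 0 as well, from 0.63 to 1.39. Taar9 and the nearest outside genes Vnn1 and Stx7 lie close to 0.

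ORs, the larger receptor family of OSNs, moved the other way on balance. Of 1089 ORs tested, 47 were higher and 413 lower in RTP1,2DKO, with a median log2 fold change of -1.06, and of 116 Class I ORs, which are mostly expressed dorsally as TAARs are, 6 were higher and 40 lower with a median of -0.59. The log2 ratio of the Taar7 sum to the summed OR counts was -10.08, -10.05 and -10.23 in the wild-type mice (1 to 3) against -8.99, -9.02 and -9.02 in the RTP1,2DKO mice (1 to 3). The groups lay apart with little spread, and relative to ORs the Taar7 genes were 2.16 times as high in RTP1,2DKO. The difference in log2 ratio was 1.11, beside a log2 fold change of 0.92 for the Taar7 sum alone. Most of it was thus the rise of the Taar7 sum, and the summed OR counts fell far less than the OR median. The ratio of Taar8 to ORs went from -12.9 ± 0.583 (SD, n = 3) to -11.9 ± 0.595 (SD, n = 3). Both differences had p = 0.1 by the exact permutation test (two-sided), the smallest p that 3 mice against 3 allow, and an adjusted p of 0.25.

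When size factors were computed over ORs in place of all genes, 7 of the 8 members passed the threshold as higher, but so did 68.4% of all genes, with 15141 higher and 306 lower. This scaling moved the median log2 fold change of all genes to 0.97. Relative to that median the log2 fold change was 0.91 for the Taar7 sum and 0.76 for the Taar8 sum.

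TAARs signal through the OSN cascade of the olfactory G protein, adenylate cyclase and a cyclic nucleotide-gated channel. Of its 11 genes on the list, 8 were lower and none higher, with a median log2 fold change of -1.05. The G protein subunit Gnal had a log2 fold change of -0.94, its exchange factor Ric8b -0.92 and the cyclase Adcy3 -1.41. The channel subunits Cnga2, Cnga4 and Cngb1 had -1.06, -1.18 and -1.09, the chloride channel Ano2 -1.18 and the phosphodiesterase Pde1c -1.05. Gnb1 (-0.47), Gng13 (-0.76) and the exchanger Slc24a4 (-0.69) did not pass by edgeR's quasi-likelihood test, and all 11 genes did by DESeq2. The mature OSN markers were lower in 4 of 5 with a median of -0.90, and their summed counts were 96397.8 to 97692.5 in the wild-type and 41066.4 to 51763.8 in RTP1,2DKO. The Taar7 sum thus moved in the opposite direction to the mature OSN markers.

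Markers of other cells are given beside the Taar7 sum. Of 7 immature OSN markers, 2 were higher (4 by DESeq2), Gap43 with a log2 fold change of 0.58 and Gng8 with 0.91, and the summed counts of the list were 27610.6 to 33835.0 in the wild-type and 38174.6 to 40833.6 in RTP1,2DKO. Of 3 blood markers none passed by edgeR's quasi-likelihood test (3 at an unadjusted p under 0.05, and Hbb-bs by DESeq2), with a median log2 fold change of 0.76, and their summed counts were 54997.4 to 89700.6 in the wild-type and 87555.0 to 159853.5 in RTP1,2DKO. Their part in the change of the Taar7 sum was not tested. Of the dorsal zone markers, Nqo1 was lower with a log2 fold change of -0.66, and Acsm4 had -0.16 and did not pass. The ventral zone markers Ncam2 (-0.16) and Nrp2 (0.01) did not pass. None of the other markers passed by edgeR's quasi-likelihood test. At an unadjusted p under 0.05 there were the progenitor markers Neurog1 and Neurod1, with log2 fold changes of 0.59 and 0.46, and 2 of 4 respiratory multiciliated markers (Ccdc39 and Tekt1, with -0.42 and -0.40), of which DESeq2 called Ccdc39. No gene passed either way among the 3 sustentacular markers, the 4 macrophage markers and the 7 genes of OR gene choice.

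When mice of the same number were paired by a replicate block, 196 genes were higher in RTP1,2DKO in place of 102, and still 0 of the 8 members passed. The p-values rest on the spread between 3 mice a group.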

How the data were processed

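Whole olfactory mucosa was sequenced from 3 wild-type and 3 RTP1,2DKO mice. The authors assigned the reads with kallisto to mouse transcripts with extended OR annotations (mm10 per the submitters' processing notes, kallisto version not given in the sources used here) and deposited, per transcript, an estimated count and its TPM. The labels and the methods name different stranded library kits. TPM values served to compare levels between genes and as an alternative measure for ratios and shares, not for the fits. Estimated counts were summed per gene (each member has 1 transcript in the files) and rounded.

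edgeR 4.0.16 (quasi-likelihood test) was run in R 4.3.3 with size factors by median of ratios over all genes (DESeq2 1.42.0). Adjustment was by Benjamini-Hochberg over 22152 genes, those with 1 or more counts in any mouse, at 0.05. The SE of a log2 fold change was derived from the test. It is the absolute fitted log2 fold change before shrinkage, divided by the square root of the test's F statistic. Normalized counts are counts divided by the size factors (0.907 to 1.1467). A further fit used the table with each subfamily summed. Exact permutation tests, two-sided, of 3 mice against 3 compared ratios and shares. Python 3.11.15 with pandas 2.3.3 and scipy 1.17.1 was used, and the fits were tested on simulated data. Sequences, positions and words of 31 bases came from GENCODE M21 (GRCm38), and upstream windows from RefSeq (GRCm38.p6).

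Both groups have mice numbered 1 to 3 in the labels. Deviations from the group means correlated for mice of the same number over 18136 genes (0.142, 0.181 and 0.102), so the number was also fitted as a block. Mice of unlike number gave -0.224 to 0.095, the highest for wild-type mouse 1 with RTP1,2DKO mouse 3. Deviations cancel within a group, so these correlations are not independent of each other. The other alternatives were TMM, total count and OR-based scaling, a low-count filter, 3 other tests, each mouse left out, TPM in place of counts, and other OR sets. Leaving each Taar7 gene out of the sum was added after the data were seen. The text names all Taar genes, Rtp1 and Rtp2, genes of the fixed lists, and the 5 genes most like each sum across mice. Some genes that this rule takes are not reported here. The members and lists were chosen with earlier results of these data known.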

Additional observations from a re-analysis of the deposited data

How the results depend on the processing

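The Taar7 sum kept its direction and passed the threshold under all 19 alternatives run, none of which used TPM. Its log2 fold changes were 0.83 to 1.89, with adjusted p-values of 2.69e-06 to 0.02127 from edgeR or DESeq2. The highest log2 fold change and the lowest adjusted p came from size factors over ORs, which shift all genes upward. With each mouse left out the range was 0.83 to 1.02, and leaving any Taar7 gene out of the sum, an alternative added after seeing the data, gave a call as well. With the replicate block the Taar8 sum had 0.76 (adjusted p = 0.266), and the pairing changed no call of a member or sum. With size factors over ORs the Taar8 sum passed (1.73, adjusted p = 0.0004418), as did 7 of the 8 members and 15447 of all genes, since this scaling shifts all genes upward. With each mouse left out, the members called were 0 to 1, the genes called 598 to 777 beside 799, and the Taar8 sum ran from 0.46 to 0.99. Genes called as higher numbered 52, 59 and 65 without RTP1,2DKO mouse 1, 2 or 3 in place of 102, 42 with total count scaling, 169 with the likelihood-ratio test and 216 with DESeq2. The cause was not tested. Small differences changed sign with single mice left out. The log2 ratio of Taar8 to the other Taar genes ran from -0.28 to 0.31 and that of Taar7 to Taar8 from -0.13 to 0.51. The share differences ran from -1.66 to 4.96 percentage points for Taar7a, from -0.81 to 3.37 for Taar7b, from -6.34 to 5.98 for Taar7e, from -3.92 to 6.78 for Taar7f and from -0.99 to 5.35 for Taar8a. The log2 fold change of Taar8a ran from -0.083 to 2.10, and Taar8a had too few counts for the low-count filter. The sum with pseudogenes was not run, as no row of the files stood for one. For Taar8c the log2 fold change ran from 0.36 (without RTP1,2DKO mouse 2) to 1.69 (without RTP1,2DKO mouse 3). At the depth of these libraries a difference in Taar8a was not detectable.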

Other observations

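Across the 6 mice, the genes outside the Taar family whose log2(normalized count + 1) followed that of the Taar7 sum most closely were Olfr806 (Pearson r = 0.9954), Rab38 (0.9948), Cyp2b10 (0.9944), Zbtb8b (0.993) and Fam171a2 (0.9928). For the Taar8 sum they included Olfr1357 (0.9929), Snx5 (0.9915), Map2k3 (0.9849) and Rpl6 (0.9831). These are among the highest of 18123 correlations, over mice that share genotype and size factors, and are given as a description.

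Of the 8 members, 6 had an upstream window of 250 bases in the RefSeq table (GRCm38.p6). The windows of Taar7d and Taar7e were 83.4% identical, those of Taar7d and Taar7f 77.6% and those of Taar7e and Taar7f 73.7%, while the other pairs had 44.9% to 57.2%. The windows of Taar7a and Taar7b thus differed more from those of the other Taar7 genes than the coding sequences did. Each of the 6 windows ended where the coding sequence begins, and the transcription starts of these genes were not mapped here. The letters CCCNNGGG, on either strand, were in 0 of the 6 windows and in 11.8% of 32851 promoters. TAATTA was in 1 of the 6 windows, that of Taar8b, and in 4.8% of promoters. Whether these windows hold the promoters of the Taar7 and Taar8 genes was not tested, so no conclusion on their promoters is drawn.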
